A study of Homo sapiens with 36 samples.

Results

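The genes described here are 10 genes of the integrated stress response (ISR): ATF4, DDIT3, TRIB3, CHAC1, SESN2, ASNS, PSAT1, SLC7A11, DDIT4 and VLDLR. They were taken as a named list and found by gene symbol among the 59607 features of the total RNA tables and the 60095 features of the polyA tables. All 10 had a row in the total RNA tables, and 9 had enough reads to be tested there. Of the 10, 4 had a row in the polyA set (DDIT3, ASNS, DDIT4 and VLDLR), and 3 of these were tested. The study was made in HCT116, an established human colon carcinoma line. The control line expressed TIR1, the plant receptor that marks degron-tagged proteins for destruction when auxin is present. The second line, called DIS3-AID, was a CRISPR clone in which the ribonuclease DIS3 carries an auxin-inducible degron, with TIR1 expressed constitutively, so that all 4 groups carried TIR1. Each line was either left untreated or given 500 uM auxin for 1 h. RNA from the cytoplasm was sequenced after ribosomal RNA depletion and after polyA enrichment, and RNA from the chromatin fraction was sequenced after ribosomal RNA depletion. Each of these 3 sets held 12 libraries, as 4 groups of 3 replicates. The submitters call the cytoplasmic replicates technical, whether the chromatin replicates came from separate cultures is not stated, and the DIS3-AID line is 1 clone, so the p-values below measure the spread between these libraries and a difference between the lines cannot be told apart from a difference between clones.

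In the ISR, stress-sensing kinases phosphorylate the translation initiation factor eIF2alpha. General protein synthesis then falls, while the ATF4 mRNA, whose upstream reading frames hold back its translation in unstressed cells, is translated more. The ATF4 protein is a bZIP transcription factor that turns on genes for amino acid synthesis and uptake, redox balance and growth arrest, and, under lasting stress, cell death. RNA counts do not measure the translational step at ATF4 itself, only the ATF4 mRNA and the mRNAs of its targets. DIS3 is a catalytic subunit of the nuclear RNA exosome, the complex that degrades and trims RNA from its 3′ end.

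The members fall into 4 roles. ATF4 and DDIT3 (which encodes CHOP, a factor that pairs with ATF4 on some target genes) are transcription factors. ASNS, PSAT1 and SLC7A11 serve amino acid supply: ASNS makes asparagine, PSAT1 catalyses a step of serine synthesis, and SLC7A11 is the light chain of the cystine/glutamate exchanger. CHAC1 degrades glutathione, and TRIB3 is a pseudokinase that binds ATF4 and lowers its activity. SESN2 and DDIT4 restrain the growth kinase complex mTORC1, and VLDLR is a lipoprotein receptor. Their GENCODE v29 gene models on GRCh38 are at chr22:39519695-39522685 (ATF4, plus strand), chr12:57516588-57521737 (DDIT3, minus), chr7:97852118-97872542 (ASNS, minus), chr9:78297143-78330093 (PSAT1, plus), chr4:138164097-138242349 (SLC7A11, minus), chr15:40952962-40956519 (CHAC1, plus), chr20:362835-397559 (TRIB3, plus), chr1:28259527-28282491 (SESN2, plus), chr10:72273920-72276036 (DDIT4, plus) and chr9:2621834-2660053 (VLDLR, plus). All are protein-coding genes, and a count for one of them sums over the exons of its models.

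ATF4 binds DNA as a dimer with a C/EBP protein at sites known as C/EBP-ATF response elements, often written TGATGNAA. That motif was searched on both strands of RefSeq promoters on GRCh38.p14, which run from 250 bases before to 50 bases after each transcript start. Promoters were listed for 9 of the members, all but SLC7A11. The motif was found in 1270 of 35116 promoters (3.62%) and, counted by gene, in 2 of the 9 members, ASNS and CHAC1. ATF4, DDIT3, ASNS and TRIB3 had multiple listed promoters each, so the share and the member count are not on the same basis. The 30-base windows around these 2 matches are shown because ASNS and CHAC1 are among the genes that differed between the lines below. Each is written 5′ to 3′ on the strand of its gene with the match in capitals.
ASNS: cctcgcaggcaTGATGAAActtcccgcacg
CHAC1: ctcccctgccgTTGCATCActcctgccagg
The ASNS window lies at chr7:97872458-97872487, with the match on the strand of the gene at -68 bases from the start. The CHAC1 window lies at chr15:40953251-40953280, with the match on the opposite strand at -209 bases, so that the capitals are its reverse complement. In GENCODE v29 both windows also overlap exons of longer models of the same genes, annotated there as untranslated. The related motifs TGACGTCA (1.85% of promoters) and TGACGNAA (1.66%) were in no member's promoter window. A match is a description of these letters and not a measured binding site.

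Total counts ranged from 59.5M to 122.6M reads (M, 1000000 reads) per cytoplasmic total RNA library, from 50.3M to 139M on chromatin and from 25.9M to 33.1M in the polyA set. Values below are counts per 1000000 reads scaled by TMM (trimmed mean of M values) within a set (CPM), and tests are edgeR quasi-likelihood F tests over all features of the set with Benjamini-Hochberg adjustment, called at an adjusted p under 0.05. The DIS3 mRNA, counted over all its exons, was already lower in the untreated DIS3-AID clone: it was at 50.1 ± 2.63 CPM in the cytoplasm against 90.5 ± 2.58 in control cells (SD, n = 3 each), a log2 difference of -0.85 ± 0.05 (SE, adjusted p = 2.38e-09, edgeR). The degron acts on the protein, so this check bears on the lines and not on DIS3 depletion. All 6 epithelial markers passed the filter on low counts in every set, while blood markers summed to at most 0.297 CPM and endothelial markers to at most 0.744 CPM. Fibroblast markers summed to 8.66 to 14.4 CPM in the cytoplasm, 11 to 18 CPM on chromatin and 12 to 16.4 CPM in the polyA set, with 1 of 5 passing the filter in each set. Chromatin-retained RNAs summed to 3630 to 5290 CPM on chromatin and 835 to 1020 CPM in the cytoplasm, and 4 abundant cytoplasmic mRNAs to 271 to 371 and 13000 to 15900 CPM, so the fractions carried the RNAs of their labels. The 4 cytoplasmic mRNAs differed by group in the cytoplasm: 15500 to 15900 CPM in untreated control cells and 15700 to 15900 CPM with auxin. In the DIS3-AID line they summed to 14300 to 14500 CPM untreated and 13000 to 13600 CPM with auxin. The epithelial markers went the other way between the untreated lines, at 2860 to 2980 CPM in control cells and 3380 to 3550 CPM in the clone. In such bulk samples fewer cells with an RNA and less RNA per cell cannot be told apart.

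In untreated control cells the members covered a wide range of levels. Per kilobase of exon, cytoplasmic ATF4 was the highest at 150 ± 4.55 CPM per kilobase (SD, n = 3), followed by PSAT1 at 90.4 ± 0.691. ASNS (15.5 ± 0.425) and TRIB3 (13.4 ± 0.216) came next, then DDIT4 (7.5 ± 0.316), SLC7A11 (5.95 ± 0.205), SESN2 (4.59 ± 0.161), DDIT3 (3.85 ± 0.328) and CHAC1 (2.07 ± 0.171). The libraries of neighbouring genes in this order did not overlap. On chromatin the order was different. PSAT1 led at 31.2 CPM per kilobase, and SLC7A11 (8.1 ± 0.262) and ATF4 (8.08 ± 0.136) followed with overlapping libraries. SESN2 (4.94), TRIB3 (3.53), ASNS (3.16) and DDIT3 (3.06) were in the middle, the last 2 with overlapping libraries. DDIT4 (0.468 ± 0.0856) and CHAC1 (0.438 ± 0.104) were lowest and also overlapped. ATF4 went from the first place in the cytoplasm to overlap with SLC7A11 on chromatin, and DDIT4 from the fifth place to the lowest pair. The CPM values were scaled within each set, so the order within a fraction can be compared and the level between fractions cannot.

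**Figure D1:**
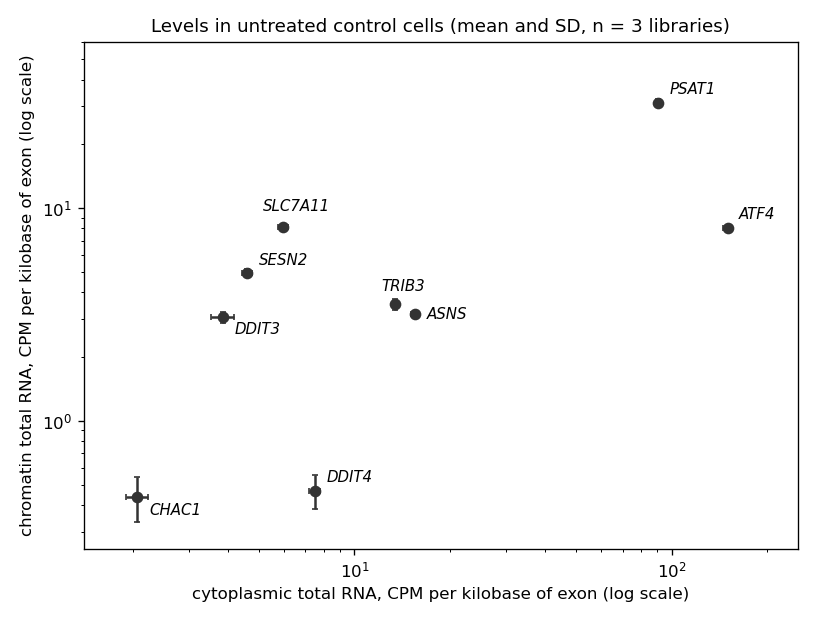
Levels of the 9 tested genes in untreated control cells, in CPM per kilobase of exon, in cytoplasmic total RNA (horizontal, log scale) and chromatin total RNA (vertical, log scale); points are means and bars SD over 3 libraries. ATF4 is at 150 in the cytoplasm and 8.08 on chromatin, while SLC7A11 is at 5.95 and 8.1.

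Scaled over both fractions together, 8 of the 9 tested members were lower on chromatin than in the cytoplasm of untreated control cells and none was higher, where 44% of all features and 55.8% of protein-coding genes were lower and 90.2% of features differed in either direction (edgeR, 27418 features). The members' median log2 difference was -2.57, beside 0.1 over all features and -0.56 over protein-coding genes. ATF4 had the largest at -4.85 ± 0.07 (SE), with 478 ± 11.1 CPM in the cytoplasm and 16.6 ± 0.309 on chromatin on the joint scale. DDIT4 was nearly as far apart at -4.69 ± 0.12. ASNS and CHAC1 were both at -2.93, TRIB3 at -2.57, PSAT1 at -2.17 and DDIT3 at -0.97. SESN2 (-0.53, adjusted p = 2.91e-09) and SLC7A11 (-0.2, adjusted p = 0.0535) were nearest to even. Their direction depended on the scaling: by library sizes alone, which moved the median of all features to 0.76, they were at 0.13 and 0.47 (12665 features higher and 12066 lower became 15260 and 9554), and SLC7A11 was at 0.31 with scaling from protein-coding genes. The other 7 kept their direction and their call under each alternative.

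Without auxin, the DIS3-AID clone had lower cytoplasmic levels of CHAC1, SLC7A11, ATF4 and SESN2 than the control line. These were 4 of the 9 tested members, with none higher, where 12.4% of all features and 17.6% of protein-coding genes were lower and 22.1% of all features differed in either direction. The members' median log2 difference was -0.18, beside -0.01 over all features and -0.05 over protein-coding genes. By library sizes alone the split over all features was 2527 higher and 2366 lower, against 2227 and 2858 with TMM, with DESeq2's size factors 2743 and 2209, and with scaling from protein-coding genes 3059 and 1998.

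ATF4 was at 372, 367 and 389 CPM in the 3 untreated control libraries and at 313, 315 and 314 CPM in the 3 untreated DIS3-AID libraries. The groups did not overlap, and the log2 difference was -0.26 ± 0.04 (SE, adjusted p = 0.000175, edgeR). Its heterodimer partner DDIT3 was at 4.62, 5.47 and 4.99 CPM against 4.45, 4.82 and 4.88 CPM, with overlapping groups and a log2 difference of -0.09 (95% interval -0.31 to 0.13). Thus the ATF4 mRNA was lower in the clone and a difference in cytoplasmic DDIT3 was not detected.

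Among the amino acid supply genes, SLC7A11 was at 59.5, 57.2 and 55.5 CPM in control cells and at 39.6, 49.6 and 43.2 CPM in the clone. All 3 clone libraries were below all 3 controls, and SLC7A11 fell by 0.38 on the log2 scale (adjusted p = 0.00352, edgeR). PSAT1 was at 196 to 199 CPM in the control libraries and 167 to 192 CPM in the clone (-0.14, adjusted p = 0.0657), and ASNS at 67.8 to 71.1 and 57.9 to 71.3 CPM (-0.08, adjusted p = 0.433). Neither passed the test, and only the ASNS groups overlapped.

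CHAC1 was the member that differed most: it was at 3.9, 4.3 and 4.6 CPM in control cells and at 2.74, 2.66 and 2.78 CPM in the clone. That is a fall of 35.9%, or -0.64 ± 0.1 on the log2 scale (adjusted p = 0.000117, edgeR), with no overlap. TRIB3, at 45.3 to 46.8 CPM in control cells and 44.3 to 50 CPM in the clone, did not pass (0.04, 95% interval -0.06 to 0.15). SESN2 was at 15.3, 15.7 and 16.4 CPM against 13.9, 13.6 and 14.5 CPM. Its groups were apart, but its call (-0.18, adjusted p = 0.0348) was lost in DESeq2 (adjusted p = 0.0541), under 5 of the other alternatives, and when untreated control replicate 1, 2 or 3 or untreated DIS3-AID replicate 1 or 2 was left out (-0.19 to -0.13). DDIT4 was at 14.7 to 15.9 CPM against 11.9 to 14.1 CPM (-0.23, adjusted p = 0.0647).

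**Figure D2:**
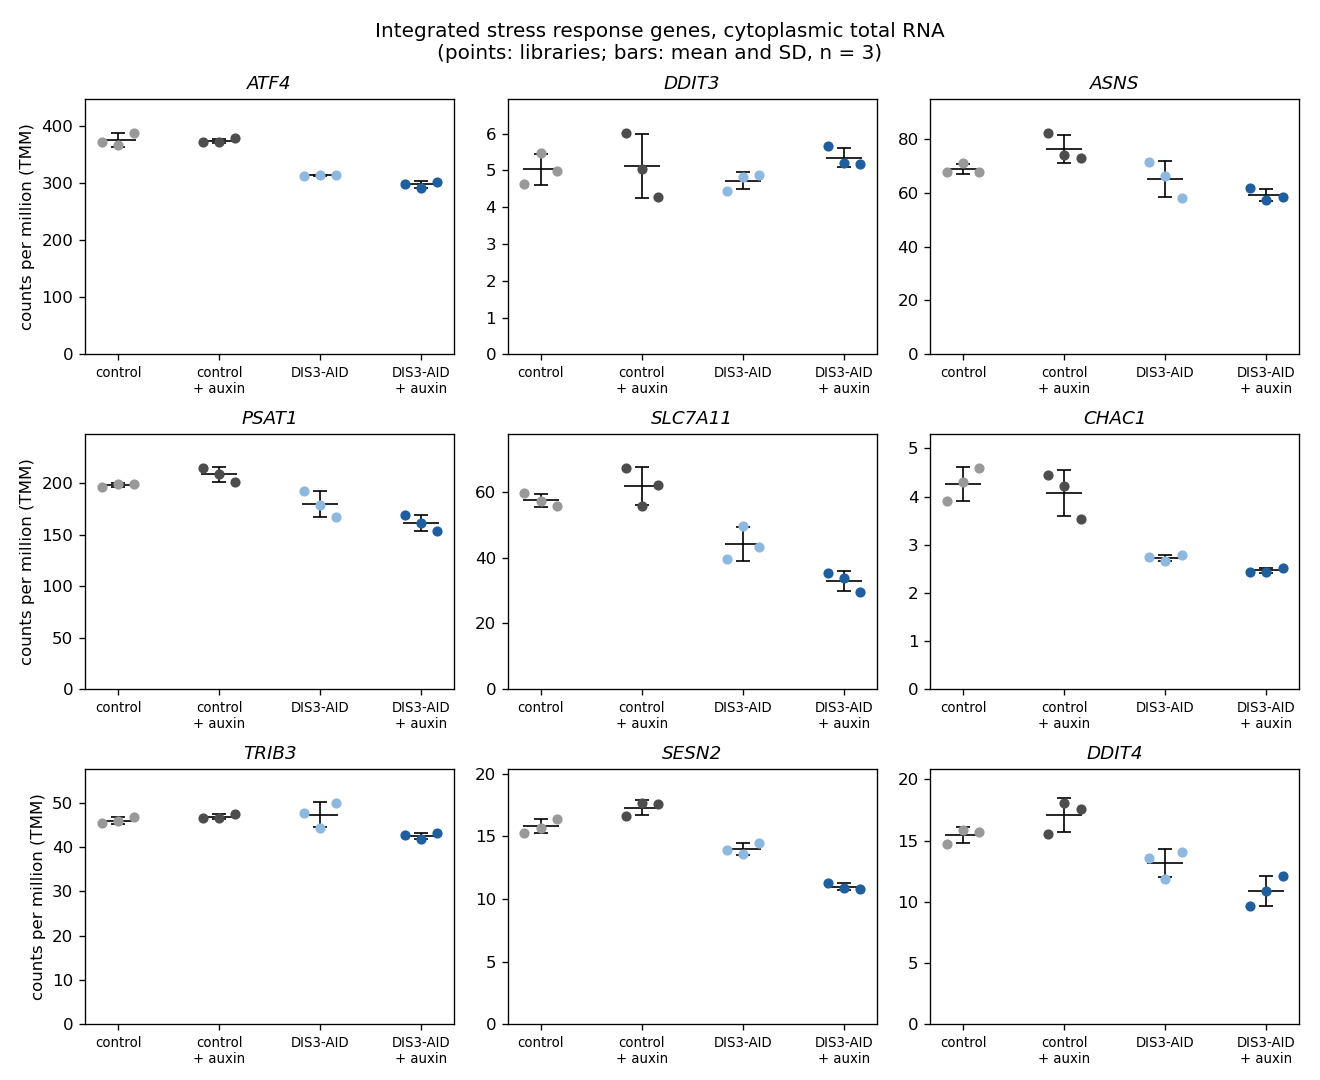
Cytoplasmic total RNA levels of the 9 tested genes in CPM (vertical, from 0) in the 4 groups (horizontal); points are libraries and bars the mean and SD (n = 3). ATF4, CHAC1, SESN2, PSAT1, SLC7A11 and DDIT4 have every DIS3-AID library below every control library, a separation not counted over all features. SESN2 and SLC7A11 step down again with auxin in the DIS3-AID line.

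No member passed the test of auxin in the cytoplasm of the control line: 0 of 9 passed edgeR's test and 0 passed in DESeq2, with 2 at an unadjusted p under 0.05. Over all features 11 of 23027 passed (0.0478%; 67 in DESeq2). The members' median log2 difference was 0.07, beside 0 over all features. The widest were ASNS at 0.15 (95% interval 0.01 to 0.29), DDIT4 at 0.15 (-0.03 to 0.32) and SESN2 at 0.13 (0.01 to 0.25). The ASNS, SESN2 and PSAT1 (0.07) groups did not overlap, each higher with auxin. How many of all features had groups apart was not counted. ATF4 was at 372, 373 and 379 CPM with auxin (95% interval of the log2 change -0.09 to 0.08).

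With auxin in the DIS3-AID line, SLC7A11, SESN2, DDIT4, TRIB3 and PSAT1 fell in the cytoplasm. These 5 of 9 tested members, with none higher, stand beside 13.2% of all features that fell and 34.3% that changed in either direction. Among protein-coding genes 20% fell. The members' median was -0.15, beside -0.05 over all features and -0.1 over protein-coding genes. The split over all features was 4854 higher and 3040 lower with TMM, but 5581 and 681 by library sizes alone, which moved the median of all features to 0.05. Under library sizes alone, with scaling from protein-coding genes, and when only the compared groups were fitted, 2 members passed, and with no filter on low counts 3.

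SESN2 was at 13.9, 13.6 and 14.5 CPM without auxin and at 11.3, 10.9 and 10.8 CPM with it. Every treated library was below every untreated library, and SESN2 fell by 21.5%, a log2 change of -0.35 ± 0.06 (adjusted p = 0.000105, edgeR). SLC7A11 went from 39.6, 49.6 and 43.2 CPM to 35.3, 33.8 and 29.5 CPM, again without overlap, and fell by 25.5% (log2 -0.42 ± 0.08, adjusted p = 0.000694, edgeR). These 2 calls held under every alternative and without each library in turn.

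The other 3 calls were small and less stable. DDIT4 was at 13.6, 11.9 and 14.1 CPM without auxin and 9.66, 10.9 and 12.1 CPM with it, with overlapping groups (-0.28, adjusted p = 0.0185, edgeR). TRIB3 was at 47.6, 44.3 and 50 CPM and at 42.7, 41.8 and 43.1 CPM (-0.15, adjusted p = 0.024), and PSAT1 at 192, 179 and 167 CPM and at 169, 161 and 154 CPM (-0.15, adjusted p = 0.036), the PSAT1 groups overlapping. Leaving out untreated DIS3-AID replicate 1 or auxin-treated DIS3-AID replicate 2 ended all 3 of these calls. Further libraries ended 1 or 2 of them: untreated replicate 2 (PSAT1) and 3 (TRIB3, DDIT4), and auxin-treated replicate 1 (TRIB3, DDIT4) and 3 (TRIB3, PSAT1). Their log2 changes then ranged from -0.35 to -0.2 for DDIT4, from -0.18 to -0.09 for TRIB3 and from -0.19 to -0.08 for PSAT1.

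ATF4 itself was at 313, 315 and 314 CPM without auxin and at 299, 292 and 303 CPM with it. The libraries did not overlap, but the change of -0.07 ± 0.04 did not pass (adjusted p = 0.164, edgeR; 95% interval -0.16 to 0.01). DDIT3 was the only member above 0 here, at 4.45 to 4.88 CPM without and 5.18 to 5.66 CPM with auxin (0.19, adjusted p = 0.186). CHAC1 (-0.14) and ASNS (-0.14) did not pass either.

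The effect of auxin in the DIS3-AID line was tested against that in the control line as an interaction, and 5 of 9 members were lower in it, where 3.31% of all features and 4.91% of protein-coding genes were lower and 19.4% of features differed in either direction. SLC7A11 differed by -0.53 ± 0.12 (adjusted p = 0.00311, edgeR), SESN2 by -0.47 ± 0.08 (adjusted p = 0.000204) and DDIT4 by -0.42 ± 0.12 (adjusted p = 0.0158). ASNS (-0.29, adjusted p = 0.0418) and PSAT1 (-0.23, adjusted p = 0.0432) were close to the threshold. For ASNS, the change in control cells (0.15) and that in DIS3-AID cells (-0.14) did not pass by themselves. The PSAT1 call was lost with no filter on low counts (-0.2, adjusted p = 0.0715, edgeR). ATF4 (-0.07), TRIB3 (-0.18), CHAC1 (-0.08) and DDIT3 (0.15) did not pass. Both scaling alternatives, library sizes alone and protein-coding genes, left the 2 calls of SLC7A11 and SESN2, and library sizes alone gave a split over all features of 4079 higher and 237 lower, against 3696 and 763. The ASNS, PSAT1 and DDIT4 calls were each lost without at least 7 of the 12 libraries left out in turn, untreated control replicate 1, untreated DIS3-AID replicate 1 and auxin-treated DIS3-AID replicate 2 ending all 3 of them.

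With auxin present in both lines, 8 of 9 members were lower in the cytoplasm of the DIS3-AID line, where 28.6% of all features and 41.6% of protein-coding genes were lower and 56.9% of features differed. This comparison adds the difference between the lines to that of auxin and shares its libraries with those above. SLC7A11 was at 67.3, 55.7 and 61.9 CPM in auxin-treated control cells and 35.3, 33.8 and 29.5 CPM in auxin-treated DIS3-AID cells, a log2 difference of -0.91 ± 0.08 (adjusted p = 6.35e-08, edgeR). CHAC1 was at -0.73, SESN2 at -0.65, DDIT4 at -0.65, ASNS and PSAT1 at -0.37 each and ATF4 at -0.33. All of these passed, and their groups did not overlap, a separation not counted over all features. The TRIB3 call (-0.14, adjusted p = 0.0231) was lost in 5 alternatives. It was also lost without each of the auxin-treated control libraries or without auxin-treated DIS3-AID replicate 2 or 3 (-0.14 to -0.08). DDIT3 did not pass (0.06, 95% interval -0.16 to 0.28). By library sizes alone the split over all features was 7877 higher and 3931 lower, against 6520 and 6581 with TMM and 8315 and 3565 with scaling from protein-coding genes.

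On chromatin the untreated clone differed from the control line in a partly different subset. CHAC1, DDIT3, ASNS, SLC7A11, SESN2 and PSAT1 were lower, which is 6 of 9 tested members with none higher, where 17.4% of all features and 21.9% of protein-coding genes were lower and 32.5% of features differed in either direction. The members' median was -0.29, beside 0 over all features and -0.02 over protein-coding genes. The split over all features by library sizes alone was 4788 higher and 3359 lower, against 3785 and 4335 with TMM.

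The ATF4 RNA on chromatin was at 19.9, 20.6 and 20.4 CPM in control cells and 20.7, 19.7 and 21.1 CPM in the clone (0.01, 95% interval -0.12 to 0.15), with overlapping groups. DDIT3 was at 4.14, 4.15 and 3.71 CPM and at 2.85, 2.52 and 2.24 CPM, without overlap, and fell by 35.8% (log2 -0.64 ± 0.13, adjusted p = 0.00106, edgeR). The 2 transcription factor genes were thus the reverse of the cytoplasm, where ATF4 differed and DDIT3 did not pass. Tested as a difference between the fractions, ATF4 was at 0.28 ± 0.08, less negative on chromatin (adjusted p = 0.0217, edgeR) and DDIT3 at -0.54 ± 0.18, more negative there (adjusted p = 0.0383), where 13.2% of all features differed, 6.58% higher and 6.61% lower, and 10.3% of protein-coding genes were higher and 7.8% lower (1804 higher and 1813 lower, or 1529 and 2440 with DESeq2's size factors). Without chromatin control replicate 1, chromatin DIS3-AID replicate 3 or cytoplasmic control replicate 1 the ATF4 call was lost (0.26 to 0.31). The DDIT3 call was lost without those same 3 libraries, chromatin control replicate 2, chromatin DIS3-AID replicate 2, cytoplasmic control replicate 3, or cytoplasmic DIS3-AID replicate 2 or 3 (-0.64 to -0.46).

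ASNS was at 13.7, 14 and 14.5 CPM on chromatin in control cells and at 10.8, 9.27 and 9.4 CPM in the clone. It fell by 30.1% (-0.52 ± 0.08, adjusted p = 0.000148, edgeR) without overlap, and differed more on chromatin than in the cytoplasm (-0.43 ± 0.12, adjusted p = 0.0114, a call lost without cytoplasmic DIS3-AID replicate 1, with a range of -0.52 to -0.36 over the libraries left out). SLC7A11 was at 77.1, 76.3 and 81 CPM and at 63.5, 54.5 and 55 CPM, a fall of 26.2% (adjusted p = 7e-04) close in size to that in the cytoplasm; the difference between fractions was -0.05 (95% interval -0.33 to 0.22). PSAT1 was at 65.8 to 71 CPM and at 57.8 to 61.8 CPM (-0.18, adjusted p = 0.0118), a call lost without chromatin control replicate 1 or DIS3-AID replicate 3 (-0.21 to -0.16) and by library sizes alone (-0.13, adjusted p = 0.0765).

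CHAC1 was at 1.01, 1.04 and 0.654 CPM in control cells and at 0.456, 0.427 and 0.444 CPM in the clone. The groups were apart and the log2 difference was -0.98 ± 0.22 (adjusted p = 0.00202, edgeR), with 19 to 109 reads per chromatin library, the fewest of the tested members. SESN2 was at 16.3 to 17.9 CPM and at 12.9 to 15 CPM (-0.29, adjusted p = 0.00423). TRIB3 (11.4 to 12.9 and 12 to 12.1 CPM) and DDIT4 (0.853 to 1.17 and 0.744 to 0.872 CPM) overlapped between the lines and did not pass.

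**Figure D3:**
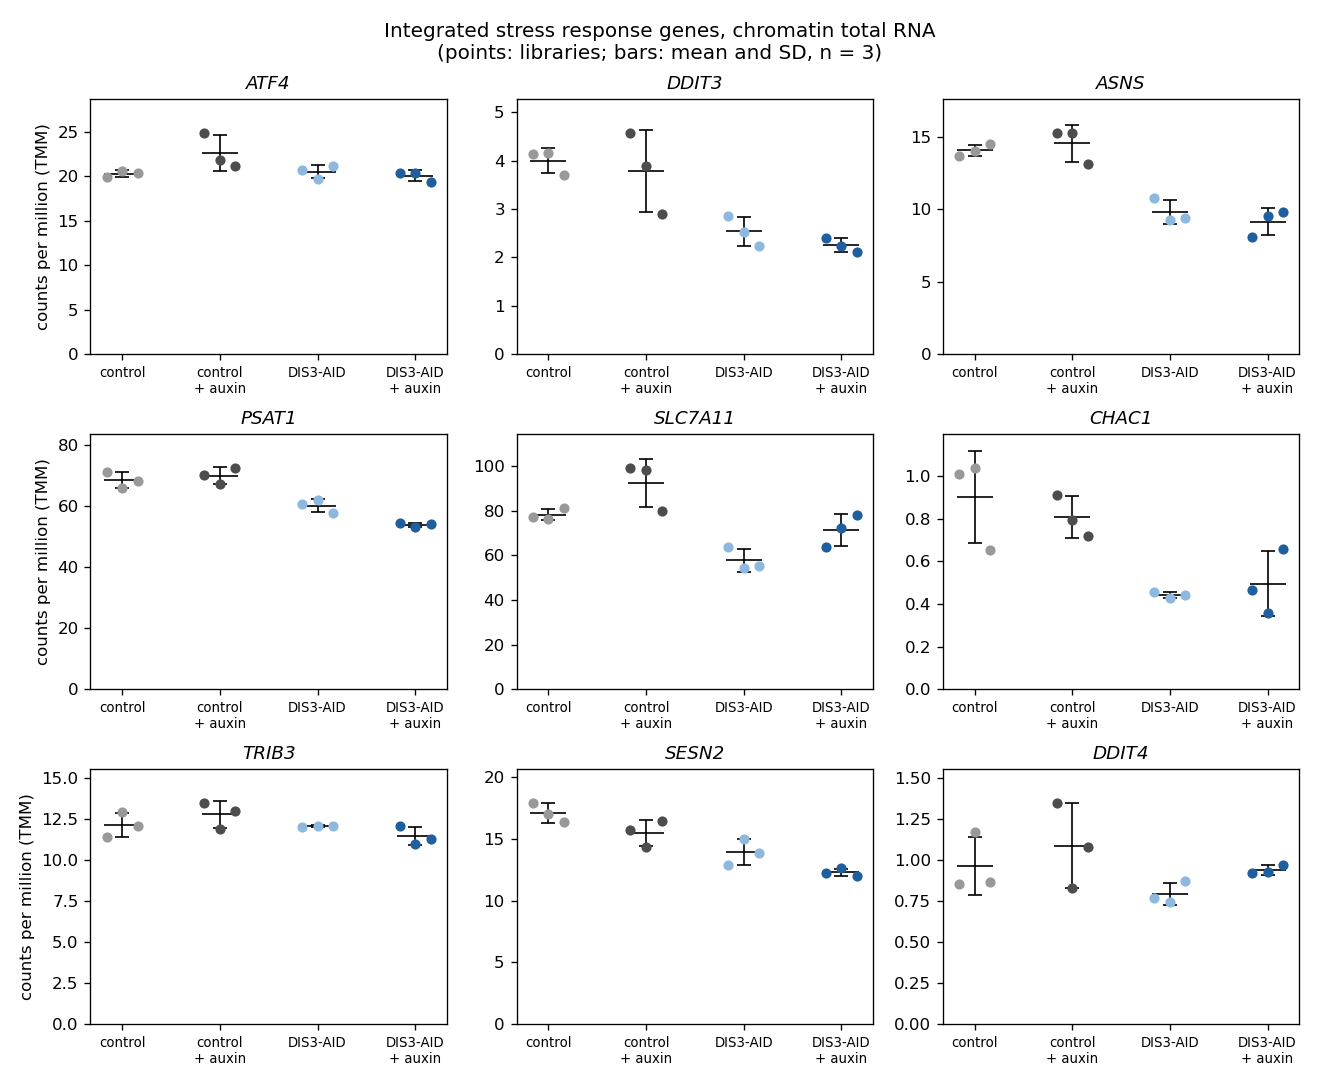
Chromatin total RNA levels of the same 9 genes in CPM (vertical, from 0) in the 4 groups (horizontal); points are libraries and bars the mean and SD (n = 3). DDIT3, ASNS and PSAT1 have every DIS3-AID library below every control library, a separation not counted over all features. SLC7A11 is higher with auxin in 3 of 3 DIS3-AID libraries.

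With auxin, SLC7A11 rose on chromatin in the DIS3-AID line and PSAT1 fell, and the other 7 tested members did not pass, where 11% of all features rose, 9.54% fell and 20.5% changed in either direction. Of protein-coding genes 6.41% rose and 13.4% fell. SLC7A11 was at 63.5, 54.5 and 55 CPM without auxin and at 63.9, 72 and 77.9 CPM with it. The lowest treated library was just above the highest untreated library, and the change was 0.3 ± 0.08 on the log2 scale (adjusted p = 0.0159, edgeR). That call was lost without untreated DIS3-AID replicate 2 or 3 or auxin-treated replicate 2 or 3 (0.23 to 0.38), and was kept under the other alternatives. PSAT1 was at 60.7, 61.8 and 57.8 CPM and at 54.3, 53.1 and 54.2 CPM (-0.16, adjusted p = 0.042). Its call was lost under 4 alternatives and without 5 of the 6 libraries in turn, all but untreated DIS3-AID replicate 3 (-0.19 to -0.14). SESN2 was lower with auxin without overlap but did not pass (-0.18, adjusted p = 0.0917, edgeR). By library sizes alone SESN2 passed (-0.23, adjusted p = 0.0469, edgeR). The split over all features was 2741 higher and 2382 lower with TMM, 2139 and 3351 by library sizes alone, and 3337 and 1819 with scaling from protein-coding genes.

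Auxin in the control line left no member past the test on chromatin (0 in edgeR and 0 in DESeq2, 2 at an unadjusted p under 0.05), although 17% of all features passed. SLC7A11 was at 77.1, 76.3 and 81 CPM without auxin and 99.2, 98.1 and 80 CPM with it (0.24, adjusted p = 0.0543). The third auxin-treated library lay among the untreated ones; without it 2 members passed. SLC7A11 also passed by library sizes alone (0.26), with no filter (0.21) and with only the compared groups (0.24). The chromatin response of SLC7A11 was not shown to differ between the lines: the interaction was 0.06 ± 0.12 (95% interval -0.19 to 0.31, adjusted p = 0.77). No member passed that interaction (0 in edgeR and in DESeq2, 1 at an unadjusted p under 0.05), where 17.7% of all features did (2131 higher and 2298 lower, 1513 and 3193 by library sizes alone and 2708 and 1899 with scaling from protein-coding genes). With library sizes alone 1 member passed, PSAT1 at -0.26 (adjusted p = 0.0281).

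With auxin in both lines, 7 of 9 members were lower on chromatin in the DIS3-AID line, where 20.4% of all features and 27.4% of protein-coding genes were lower and 39.3% of features differed in either direction (4709 higher and 5093 lower, or 5770 and 4059 with scaling from protein-coding genes). DDIT3 (-0.76), CHAC1 (-0.71), ASNS (-0.68), SLC7A11 (-0.38), PSAT1 (-0.37), SESN2 (-0.33) and ATF4 (-0.17) passed. ASNS had the smallest adjusted p, at 15.3, 15.3 and 13.1 CPM in the control line and 8.11, 9.53 and 9.84 CPM in the DIS3-AID line (adjusted p = 6.61e-06, edgeR). The CHAC1 call was lost without auxin-treated control replicate 1 or auxin-treated DIS3-AID replicate 1 or 2 (-0.95 to -0.55). The ATF4 call (adjusted p = 0.0457) was lost without auxin-treated control replicate 1 or any of the 3 auxin-treated DIS3-AID libraries (-0.22 to -0.1) and under 5 alternatives.

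**Figure D4:**
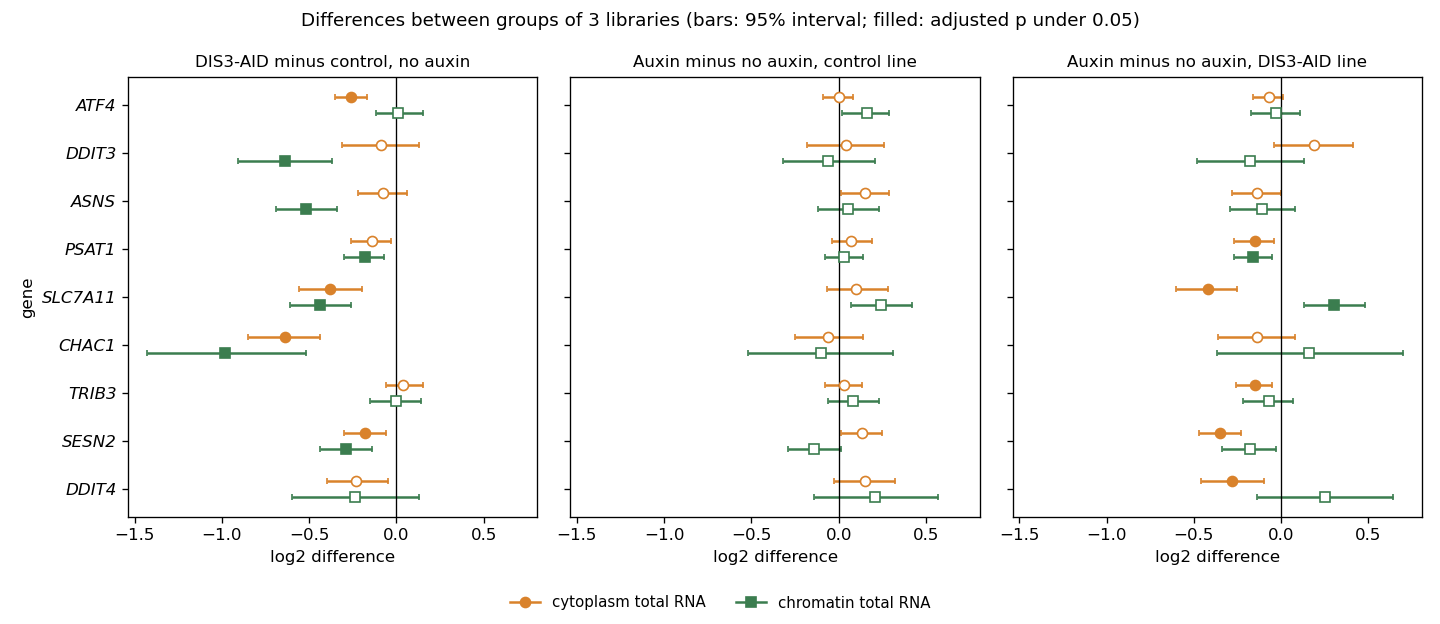
Log2 differences of the 9 tested genes (horizontal) in 3 comparisons (panels), in cytoplasmic total RNA (circles) and chromatin total RNA (squares); bars are 95% intervals and filled symbols passed at an adjusted p under 0.05. SLC7A11 lies at -0.42 in the cytoplasm and 0.3 on chromatin with auxin in the DIS3-AID line, and no symbol is filled for auxin in the control line.

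The response to auxin in the DIS3-AID line was then compared between the fractions, with all 24 total RNA libraries in a joint fit. In that fit 5 of 9 members were higher in the chromatin response than in the cytoplasmic response, where 22.1% of all features and 36.3% of protein-coding genes were higher and 33.1% of features differed in either direction. SLC7A11 stood farthest apart at 0.91 ± 0.14 (adjusted p = 6.38e-06, edgeR), with joint levels of 56 ± 6.62 and 36.5 ± 3.4 CPM without and with auxin in the cytoplasm and 47.1 ± 4.01 and 57.8 ± 5.4 CPM on chromatin. DDIT4 differed by 0.71 ± 0.2 (adjusted p = 0.00486) and SESN2 by 0.35 ± 0.1 (adjusted p = 0.00641). TRIB3 (0.26) and ATF4 (0.23) passed with adjusted p = 0.0286 and 0.0338. Scaled within each set, the changes in the cytoplasm and on chromatin lay closer together for these genes. They were -0.42 and 0.3 for SLC7A11, -0.28 and 0.25 for DDIT4 and -0.35 and -0.18 for SESN2. For TRIB3 they were -0.15 and -0.07, and for ATF4 -0.07 and -0.03. The size of each difference thus depends on the scaling. All features together had a median of 0.16 in this fit and protein-coding genes one of 0.23, so that ATF4 and TRIB3 lay at or near the level of protein-coding genes. By library sizes alone that median was -0.17, the split over all features went from 6051 higher and 3029 lower to 379 and 5520, and ATF4 (-0.11) and TRIB3 (-0.07) changed sign. Scaling from protein-coding genes gave 1568 and 3777. The DDIT4 (0.38 and 0.53) and SESN2 (0.02 and 0.17) calls were lost by library sizes alone and with scaling from protein-coding genes. The SLC7A11 call was kept under each alternative and without each library in turn. The ATF4 and TRIB3 calls were lost without chromatin DIS3-AID replicate 3, chromatin auxin-treated replicate 1, cytoplasmic DIS3-AID replicate 1 or cytoplasmic auxin-treated replicate 2. Further libraries ended ATF4 alone (chromatin DIS3-AID replicate 2, chromatin auxin-treated replicate 2, cytoplasmic DIS3-AID replicate 2) or TRIB3 alone (cytoplasmic DIS3-AID replicate 3), with ranges of 0.19 to 0.26 for ATF4 and 0.22 to 0.31 for TRIB3.

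The polyA libraries gave values for DDIT3, ASNS and DDIT4. The polyA tables held no row for 6453 of the 19762 protein-coding genes of the total RNA tables, and which transcripts their rows count is not given, so polyA levels were not compared with total RNA levels. None of the 3 passed the test of auxin in either line by edgeR or DESeq2 (0 at an unadjusted p under 0.05 in the DIS3-AID line and 1 in the control line), where 17% of all features passed in the DIS3-AID line (2190 higher and 646 lower, or 2351 and 331 by library sizes alone) and 0.048% in the control line. ASNS in the control line was at 124, 136 and 135 CPM without and 158, 149 and 138 CPM with auxin, apart but not past the threshold (0.17, 95% interval 0.05 to 0.29, adjusted p = 0.661). Between the untreated lines no difference was detected (0 of 3 in edgeR and in DESeq2, 0 at an unadjusted p under 0.05), where 11.9% of all features passed; without untreated DIS3-AID replicate 3, DDIT4 passed (lowest value over the libraries left out -0.39, against -0.22).

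With auxin in both lines all 3 were lower in the DIS3-AID line, where 15.9% of all features and 22.7% of protein-coding genes were lower and 37.9% of features differed. DDIT3 was at 16.8, 13.8 and 14.3 CPM in auxin-treated control cells and 11.7, 11.5 and 9.28 CPM in auxin-treated DIS3-AID cells, with no overlap (-0.47 ± 0.1, adjusted p = 0.000479, edgeR). ASNS was at 158, 149 and 138 CPM and at 126, 114 and 126 CPM (-0.28 ± 0.06, adjusted p = 0.000329). DDIT4 was at 11.8, 13.5 and 14.3 CPM and at 9.08, 9.44 and 10.2 CPM (-0.46 ± 0.12, adjusted p = 0.00259). DDIT3 was thus lower in polyA RNA and on chromatin, while in cytoplasmic total RNA its difference was 0.06 and did not pass; these values were not tested against each other. The split over all features by library sizes alone was 4200 higher and 1974 lower, against 3667 and 2644 with TMM. With auxin, polyA ASNS changed by 0.17 in the control line and by -0.11 in the DIS3-AID line, and neither change passed. In the interaction ASNS passed at -0.29 ± 0.08 (adjusted p = 0.0347), where 5.84% of all features passed in either direction, and 0.985% of all features and 1.54% of protein-coding genes were lower. Both scaling alternatives ended that call, as did leaving out any of the 3 untreated control libraries, auxin-treated control replicate 1 or 2, untreated DIS3-AID replicate 1 or auxin-treated DIS3-AID replicate 2 (-0.35 to -0.24).

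**Figure D5:**
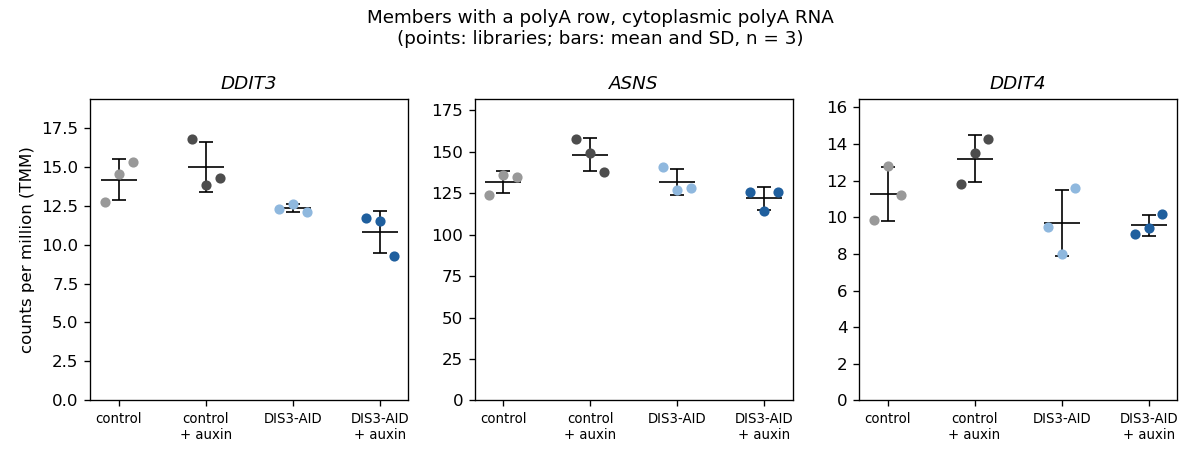
Cytoplasmic polyA RNA levels of DDIT3, ASNS and DDIT4 in CPM (vertical, from 0) in the 4 groups (horizontal); points are libraries and bars the mean and SD (n = 3). The auxin-treated DIS3-AID libraries lie below the auxin-treated control libraries for each gene, a separation not counted over all features.

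VLDLR was close to undetected in HCT116. It had 0 reads in 31 of 36 libraries and at most 3 reads in any, and did not pass the filter on low counts in any set. A count of 0 allows a level of up to 3 reads, which is 0.0252 to 0.0486 CPM in the cytoplasmic libraries, 0.0223 to 0.0597 CPM on chromatin and 0.0933 to 0.118 CPM in the polyA set. A change of VLDLR with the line or with auxin was not detectable at this depth.

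Several members share exon sequence with neighbouring genes, and whether the counting used strand is not given in the sources used here. DDIT3 overlaps 355 bp of exons of MARS1, the methionyl-tRNA synthetase gene, on the opposite strand. MARS1 was far more abundant, at 180 ± 0.503 CPM in the cytoplasm of untreated control cells against 4.62 to 5.47 CPM for DDIT3. MARS1 also differed between the lines on chromatin (-0.22, adjusted p = 0.0117, edgeR), where DDIT3 was at -0.64. The part of MARS1 reads in the DDIT3 counts was not tested. ASNS overlaps 1985 bp of exons of the unnamed gene AC079781.5 on its own strand. SLC7A11 overlaps 865 bp of SLC7A11-AS1 and DDIT4 847 bp of DDIT4-AS1, but these were at mean levels of at most 0.124 and 0.0368 CPM in any group. VLDLR overlaps 738 bp of VLDLR-AS1 on the opposite strand, which was at mean levels of 4.25 to 5.23 CPM on chromatin, while VLDLR had at most 3 reads in a library.

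The wider pathway was described with 7 lists that do not hold the members. With auxin in the cytoplasm of the control line, 0 of their 77 tested genes passed edgeR's test (4 at an unadjusted p under 0.05), and in the DIS3-AID line each list with calls had more falls than rises. The genes named below are the largest changes in their lists. Each count stands beside the same 13.2% of all features that fell and 21.1% that rose in that comparison. Of protein-coding genes 20% fell and 7.25% rose. The list counts were made with TMM alone. By library sizes alone, the falls over all features went from 3040 to 681.

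Upstream of ATF4, 6 of 16 tested genes of eIF2alpha kinases, phosphatases and exchange factors fell and 1 rose with auxin in the DIS3-AID cytoplasm. EIF2AK3, which encodes the endoplasmic reticulum kinase PERK, fell by 0.33 on the log2 scale (adjusted p = 0.00961, edgeR). PPP1R15A, the phosphatase subunit GADD34 that closes the feedback loop of the response, was at -0.3 (adjusted p = 0.00184). IMPACT, an inhibitor of the activation of GCN2, rose by 0.16 (adjusted p = 0.0336). Of the 8 partner factors of ATF4, 0 passed.

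Downstream, 6 of 8 amino acid transporters fell with auxin in the DIS3-AID cytoplasm and none rose, with a list median of -0.28. SLC38A2, which carries small neutral amino acids, was at -0.49 ± 0.09 (adjusted p = 0.000486, edgeR). SLC1A4 and SLC1A5, also neutral amino acid carriers, were at -0.45 and -0.44. Of 8 other ATF4 targets 5 fell, led by the stress cytokine GDF15 at -0.83 ± 0.15 (adjusted p = 0.000569). Among 10 genes of amino acid synthesis 4 fell and 1 rose: ALDH18A1 of proline synthesis was at -0.27, while PSPH, the last enzyme of serine synthesis, rose by 0.28 (adjusted p = 8.05e-05). Only 3 of 12 aminoacyl-tRNA synthetases passed, all lower (MARS1, CARS1 and AARS1, -0.15 to -0.14).

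The branch of the unfolded protein response that runs through ATF6 and IRE1 had the largest share of falls among the 7 lists, with 13 of 15 genes lower and a median of -0.39. HSPA5, the chaperone BiP, was at -0.49 ± 0.1 (adjusted p = 0.00186, edgeR), CALR at -0.48 and HYOU1 at -0.47. In the same comparison 3 of 6 epithelial markers also fell, EPCAM among them at -0.4, as did GAPDH at -0.17, while 2 of 3 chromatin-retained RNAs rose in the cytoplasm (NEAT1 at 0.71 and KCNQ1OT1 at 0.49). The sum of the 3 was at 869 to 988 CPM without and 835 to 935 CPM with auxin. The sum of the 4 abundant cytoplasmic mRNAs, GAPDH among them, was at 14300 to 14500 CPM without and 13000 to 13600 CPM with auxin. The part of these RNAs in the falls of the members was not tested.

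Between the untreated lines, ATF3, a stress-induced factor of the ATF family, was the listed partner that differed most, at -1.29 ± 0.11 in the cytoplasm (adjusted p = 1.45e-06, edgeR) and -0.77 ± 0.15 on chromatin (adjusted p = 0.00127). CEBPG, a dimer partner of ATF4, was at -0.19 in the cytoplasm and -0.33 on chromatin, both passing the test. The threonyl-tRNA synthetase TARS1 was at -0.38 in the cytoplasm and -0.74 on chromatin. On chromatin 7 of 12 synthetases were lower and none higher, where 17.4% of all features and 21.9% of protein-coding genes were lower. SLC1A4 (-1.2) and SLC38A2 (-0.69) were the transporters farthest apart on chromatin. Of the ATF6 and IRE1 targets, 14 of 15 were lower on chromatin in the clone (median -0.37), beside the same 17.4% and 21.9%. In the cytoplasm 3 of 15 were lower, where 12.4% of all features and 17.6% of protein-coding genes were lower. Amino acid synthesis was mixed on chromatin, with 3 of 10 genes higher and 2 lower, where 15.2% of all features were higher, and CTH, which makes cysteine from cystathionine, was highest at 0.96 ± 0.13 (adjusted p = 3.28e-05).

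With auxin on chromatin in the DIS3-AID line, 3 of 76 tested genes of these lists rose and 12 fell, where 20.5% of all features changed, so the lists together were near the background. In the control line 14 of the 76 rose and 11 fell, where 17% of all features changed, 9.02% higher and 7.97% lower. Of protein-coding genes 10.6% were higher and 10.3% lower. Both counts of the lists were above these shares. STC2, a secreted glycoprotein and ATF4 target, rose in both lines, by 0.82 ± 0.06 in DIS3-AID cells (adjusted p = 1.24e-08, edgeR) and by 0.76 ± 0.06 in control cells (adjusted p = 1.16e-07). SLC7A5, the light chain of a large neutral amino acid exchanger, was at 0.37 (adjusted p = 0.047) and 0.41 (adjusted p = 0.0342). The bZIP factor JDP2 fell in both lines (-0.52 and -0.19), and ATF5, another bZIP factor, was at -0.5 in DIS3-AID cells and 0.55 in control cells, both past the threshold. Of the kinases and phosphatases 0 of 16 passed in the DIS3-AID line (4 of 16 in the control line), and 3 of 15 ATF6 and IRE1 targets fell, where 9.54% of all features and 13.4% of protein-coding genes fell. HERPUD1 led these at -0.31, and was at -0.27 in the control line.

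The genes nearest to ATF4 and SLC7A11 in pattern were found by the root mean square distance of log2 group means, centred within each fraction, over the 8 groups of total RNA, among 15118 protein-coding genes. For ATF4 these were KBTBD4, VRK3 and RFC2, at distances of 0.0227 to 0.0271 on the log2 scale. Its groups spanned only 0.53 on that scale, and 2751 genes were within 0.1 of it, so many genes shared its pattern. SLC7A11, the member with the widest span (1.1), had 35 genes within 0.1. CD33 was at a distance of 0.044 and LGI3 at 0.0651.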

How the data were processed

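Total and polyA RNA of HCT116 fractions was sequenced in 36 libraries. The deposited files hold raw read counts per gene, made by the authors. STAR 2.7.3a, Cufflinks 2.2.1, featureCounts 2.0.0 and the build hg38 are named in the submitters' processing notes, without roles; strand setting and annotation release are not given in the sources used here. IDs were matched to GENCODE 29. From the deposited counts, features were filtered by filterByExpr (minimum count 10), scaled by TMM and tested by edgeR 4.0.16 (R 4.3.3, limma 3.58.1) quasi-likelihood F tests, with the 12 libraries of a set in 4 groups, or 24 in 8 groups across fractions, adjusted over all features of a set. This left 23027, 24966 and 16651 features in the cytoplasm, chromatin and polyA sets. The biological coefficient of variation was 6.07% to 6.59%. Replicates differed by more than counting noise in every group, so none was taken as a library deposited again; this does not show that they are independent cultures. Alternatives were DESeq2 1.42.0, its size factors in edgeR, library sizes alone, no filter, only the compared groups, a replicate block, each library left out and, added after seeing the data, TMM from protein-coding genes. The code was tested on simulated data. The members, the lists and the tests were chosen with earlier results of these data known. All 10 members are named, and from every other list at most 3 genes per direction and comparison, those with the largest log2 change that passed; genes of like pattern are the 3 nearest to ATF4 and to the member with the widest range, of which 1 is not reported here; MARS1, EPCAM, GAPDH and DIS3 were named for overlap or as checks.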

Additional observations from a re-analysis of the deposited data

Results flagged for a closer look

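In each of these results the same contrast differed between groups by a test of the difference itself (edgeR, adjusted over all features); values are log2. The interaction of auxin with the line, coded as the DIS3-AID response less the control response, passed in cytoplasmic total RNA for SESN2 (-0.47 ± 0.08 SE), SLC7A11 (-0.53 ± 0.12), DDIT4 (-0.42 ± 0.12), ASNS (-0.29 ± 0.1) and PSAT1 (-0.23 ± 0.08), and in polyA RNA for ASNS (-0.29 ± 0.08). The response of DIS3-AID cells to auxin on chromatin minus that in the cytoplasm passed for SLC7A11 (0.91 ± 0.14), DDIT4 (0.71 ± 0.2), SESN2 (0.35 ± 0.1), TRIB3 (0.26 ± 0.09) and ATF4 (0.23 ± 0.08). The difference between the untreated lines on chromatin minus that in the cytoplasm passed for ATF4 (0.28 ± 0.08), DDIT3 (-0.54 ± 0.18) and ASNS (-0.43 ± 0.12).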

How the results depend on the processing

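Of 132 values per alternative, the direction and call stayed in 130 with DESeq2, 127 with its size factors, 127 with the replicate block, 122 without a filter, 115 with scaling from protein-coding genes (chosen after seeing the data), 112 by library sizes alone, and 84 of 93 with only the compared groups. Leaving out each library kept 916 of 1026, and 97 calls were lost; where a group kept 2 libraries the spread was pooled over groups.

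The count of members past the threshold with auxin in the DIS3-AID cytoplasm went from 5 to 2 by library sizes alone, with only the compared groups and with scaling from protein-coding genes, to 3 without a filter and to 2 to 4 without a library. For the cytoplasmic interaction it went from 5 to 2 under both scalings and 2 to 4 without a library. On chromatin, auxin in the DIS3-AID line gave 2 in the main analysis and 1 without a filter, with only the compared groups, with the replicate block and with scaling from protein-coding genes (0 to 2 without a library). Auxin in the control line gave 0 and then 1 by library sizes alone, without a filter and with only the compared groups (0 to 2 without a library), and the chromatin interaction 0 and then 1 by library sizes alone. The polyA interaction went from 1 to 0 under both scalings (0 to 1 without a library), and the polyA difference between untreated lines from 0 to between 0 and 1 without a library. The response difference between fractions went from 5 to 3 with DESeq2's size factors, 2 by library sizes alone (SLC7A11 higher and, newly, DDIT3 lower at -0.51, adjusted p = 0.0475), 1 with protein-coding scaling and 3 to 6 without a library, and the untreated line difference between fractions from 3 to 1 to 3 without a library. By library sizes alone SESN2 (0.13) and SLC7A11 (0.47; 0.31 with protein-coding scaling) reversed between fractions and ATF4 (-0.11) and TRIB3 (-0.07) in the response difference. Scaling is set by construction in these; for the other losses the cause was not tested.

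Replicate numbers gave no pairing: correlations of same-numbered libraries ran from -0.174 to 0.134 and no comparison had every pair above 0.1. With the replicate block, PSAT1 on chromatin with auxin (-0.16, adjusted p = 0.0635) and ATF4 with auxin in both lines (-0.17, adjusted p = 0.063) lost their calls, ATF4 in the response difference did too (0.23, adjusted p = 0.0546), and PSAT1 (-0.15) and DDIT4 (-0.23) passed between the untreated cytoplasms. For auxin in the control line, the count over all features was 11 in the cytoplasm and 62 with the replicate block (67 in DESeq2, 245 without a filter, 4 with DESeq2's size factors, 6 with protein-coding scaling, 1 to 34 without a library), and in the polyA set 8 and 24 (20 in DESeq2, 36 without a filter, 4 to 28 without a library). Without a library the chromatin control count of 4242 ran from 2313 to 4704 and the polyA count of 1976 between untreated lines from 1194 to 2203. The response difference between fractions had 9080 features past the threshold, 5899 by library sizes alone and 5345 with protein-coding scaling. Depth limits VLDLR in every set and CHAC1 and DDIT4 on chromatin.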
